A study of Eriocheir sinensis with 6 samples.

Results

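The 200 annotated genes whose expression differed most between 3 molting Chinese mitten crabs (Eriocheir sinensis) were examined in walking-leg muscle. They were chosen from the deposited RNA-seq table by their measured values. An annotated gene was eligible if its FPKM, a fragment count scaled to gene length and library size, was at least 1 in all 3 libraries and if it was not among the 100 highest means. This left 8593 of 21314 annotated genes, out of 28671 genes listed. The log2 FPKM of each library was reduced by the median of that library over these genes. The range, which is the highest minus the lowest of the 3 values, was then used to rank the genes. Because the ranges chose the 200 genes, ranges and levels are given below as a description without a test.

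The series holds 6 libraries, an RNA-seq and an ATAC-seq library from each of 3 wild-type, untreated juvenile male crabs in the molt period, named Mu_E_1, Mu_E_2 and Mu_E_3. Each crab is a separate animal, and the study states that its muscle was divided between the assays. No other period, treatment or genotype was analysed here. The series text calls the stage D, while the sample titles give E, the name used for the molt period in the study's methods.

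Crabs grow by shedding the exoskeleton, a process driven by ecdysteroid hormones. In crustaceans the muscle of the claw is known to lose mass before shedding, so that the limb can be withdrawn, and to regrow afterwards. Bulk RNA-seq of muscle measures the RNA of muscle fibers together with that of nerve, blood cells and connective tissue in the sample. Fewer cells of a type and less RNA per cell cannot be told apart in such data.

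The libraries held 7088747, 7524721 and 7788537 recovered fragments in Mu_E_1, Mu_E_2 and Mu_E_3. The authors' scaling was not the same for each of them. For a gene of 1 kb, 1 fragment was worth 0.246 FPKM in Mu_E_1, 0.259 FPKM in Mu_E_2 and 0.0897 FPKM in Mu_E_3, so a low FPKM rests on fewer fragments in Mu_E_1 and Mu_E_2. The subtraction of library medians, which were 8.91, 8.59 and 8.07 FPKM, removes this factor from the ranges. Mu_E_3 stood apart from the others over the whole table. It was the library farthest from the other two for 4219 of the 8593 eligible genes. The identifiers are those of gene predictions, and 0 of the 21314 matched the RefSeq gene table of this species. No gene function could therefore be read from the files, and muscle markers could not be checked. The few gene names below are those that the study gives.

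The ranges of the 200 genes ran from 3.62 to 7.01 on the log2 scale, with a median of 4.20. These are 12.3-fold, 129-fold and 18.4-fold differences between the highest and the lowest crab. The median over all eligible genes was 1.20, or 2.30-fold. By construction the 200 genes are 2.33% of the eligible genes. The last genes inside the list were evm.TU.CM024108.1.244, evm.TU.CM024153.1.209 and evm.TU.CM024106.1.66, with ranges of 3.64, 3.63 and 3.62. The first genes outside it were evm.TU.JACDRO010001122.1.1, evm.TU.CM024138.1.115 and evm.TU.CM024146.1.209, with ranges of 3.62, 3.62 and 3.60. There is no gap at the edge of the list.

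The highest FPKM of a member over the 3 crabs had a median of 59.5, and the lowest had a median of 2.89. Over all eligible genes these medians were 13.6 and 5.13. At least 100 FPKM in the highest crab was reached by 63 of the 200 genes, against 902 of the 8593 eligible genes. The members took 1.39%, 1.73% and 2.61% of the fragments of Mu_E_1, Mu_E_2 and Mu_E_3. All eligible genes together took 40.7%, 39.7% and 55.6%, and the 10 most abundant genes 33.6%, 32.5% and 17.8%. Mu_E_3 thus differed in its composition as a whole, and the part of this in the share of the members was not tested.

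Each gene was placed in a pattern by the library that stood apart from the other two, on the far side of the larger gap between the 3 sorted values. The largest patterns were Mu_E_3 low with 66 genes, or 33% beside 29% of all eligible genes, Mu_E_3 high with 65 genes, or 32.5% beside 20.1%, and Mu_E_1 high with 42 genes, or 21% beside 13.9%. Mu_E_1 low and Mu_E_2 high held 11 genes each, or 5.5% beside 11.8% and 14.6%, and Mu_E_2 low held 5, or 2.5% beside 10.6%. Mu_E_3 was thus apart for 131 members, or 65.5%, beside 49.1% of all eligible genes. Mu_E_1 was apart for 53 members, or 26.5%, beside 25.7%, and Mu_E_2 for 16 members, or 8.0%, beside 25.2%. The pattern rests on the values that chose the genes. Without Mu_E_3, 64 of the 200 genes were among the 200 largest differences between Mu_E_1 and Mu_E_2. Without Mu_E_1, 118 were retained.

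**Figure D1:**
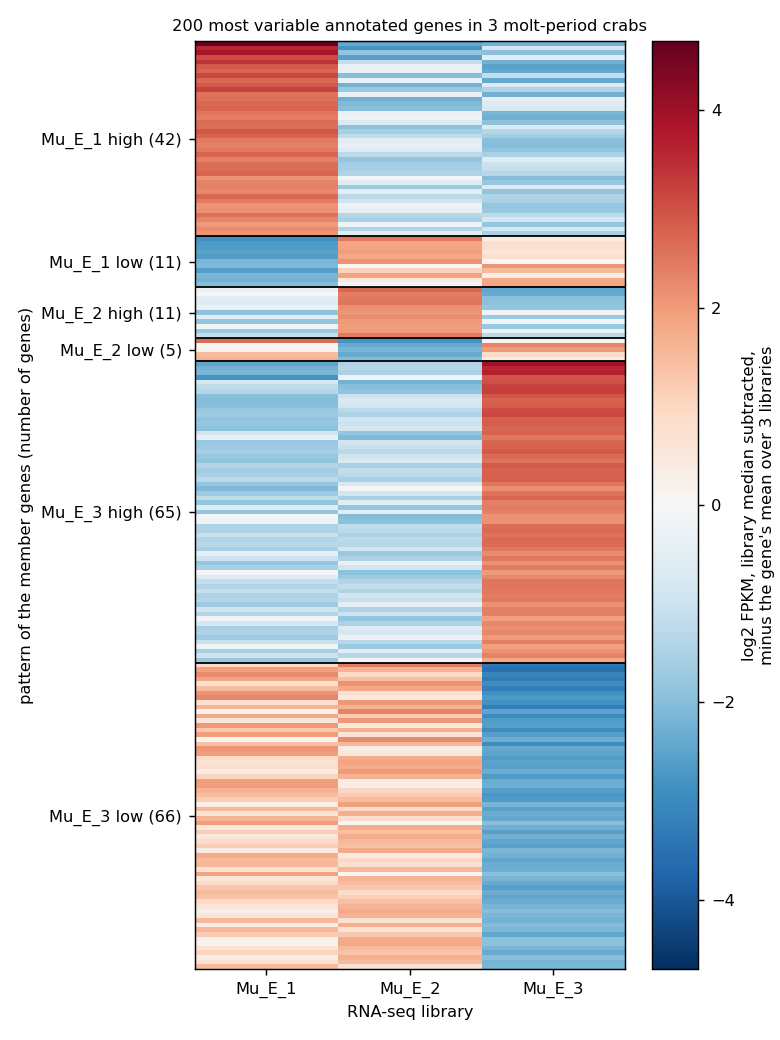
Centred log2 FPKM of the 200 members, minus the mean of each gene over the 3 libraries. Rows are genes, ordered by pattern and then by range, columns are the RNA-seq libraries, red is above and blue below the mean of the gene. The blocks in which Mu_E_3 is apart, with 65 and 66 genes, fill most of the map, and Mu_E_2 is apart in 16 rows.

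Mu_E_1 and Mu_E_2 were the most alike among the members, as they were among all eligible genes. Their centred values lay within 1 log2 unit of each other for 73 of the 200 genes, or 36.5% beside 77.2% of all eligible genes. For Mu_E_2 and Mu_E_3 the number was 17, or 8.5% beside 58.0%, and for Mu_E_1 and Mu_E_3 it was 2, or 1% beside 57.2%. The choice of large ranges lowers these shares in the members by construction. The median difference was 1.36 between Mu_E_1 and Mu_E_2, 3.58 between Mu_E_2 and Mu_E_3, and 3.82 between Mu_E_1 and Mu_E_3. In all eligible genes the same medians were 0.52, 0.84 and 0.84. Mu_E_3 was the highest of the crabs for 71 members, or 35.5% beside 32% of all eligible genes. It was the lowest for 97, or 48.5% beside 45.2%. Mu_E_1 was the highest for 71, or 35.5% beside 32.3%, and the lowest for 54, or 27% beside 28.2%. Mu_E_2 was the highest for 58, or 29% beside 35.7%, and the lowest for 49, or 24.5% beside 26.6%. These positions rest on the values that chose the genes.

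In the Mu_E_1 high pattern, the median member had 52.3 FPKM in Mu_E_1, 4.97 in Mu_E_2 and 3.23 in Mu_E_3. The largest range of all was that of evm.TU.CM024166.1.169, with 1149, 8.62 and 9.08 FPKM in Mu_E_1, Mu_E_2 and Mu_E_3, which rested on 3783, 27 and 82 fragments. This gene has no intron in its model and runs from 5511757 to 5512566 on the minus strand of its sequence in the assembly of the study. Its range of 7.01 had a 95% counting interval of 6.46 to 7.61. Close to it on the same sequence, evm.TU.CM024166.1.166 had 4508, 83.5 and 73.4 FPKM, the highest mean of the 200 genes. In both, Mu_E_2 and Mu_E_3 were alike and Mu_E_1 alone was high.

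The other leading genes of this pattern lay elsewhere. evm.TU.CM024160.1.413 had 299.8, 3.60 and 13.2 FPKM in Mu_E_1, Mu_E_2 and Mu_E_3. evm.TU.CM024108.1.98 had 110.8, 2.14 and 8.42 FPKM. In both, Mu_E_3 lay between the other crabs but nearer to Mu_E_2. evm.TU.CM024097.1.36 was listed at 227, 14.5 and 14.5 FPKM. The study places it in a G protein-coupled receptor pathway but notes that its annotation carries no receptor activity. Mu_E_2 and Mu_E_3 were nearly equal.

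In the Mu_E_3 high pattern, the median member had 4.72 FPKM in Mu_E_1, 5.27 in Mu_E_2 and 72.1 in Mu_E_3. The leading gene was evm.TU.CM024101.1.39, which runs from 1708452 to 1710806 on the minus strand. It had 5.26, 10.3 and 414.6 FPKM in Mu_E_1, Mu_E_2 and Mu_E_3, which rested on 23, 43 and 4975 fragments. Its range was 6.44, with a counting interval of 5.86 to 7.10. evm.TU.CM024153.1.152 had 2.47, 4.43 and 125.6 FPKM, and evm.TU.CM024122.1.325 had 2.67, 4.06 and 135.4 FPKM. In this pair of genes Mu_E_1 and Mu_E_2 were both near the lower limit of the rule. evm.TU.CM024118.1.395 had 2.28, 13.8 and 113 FPKM, from 4, 23 and 545 fragments, so its Mu_E_1 value is poorly determined.

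In the Mu_E_3 low pattern, the median member had 47.7 FPKM in Mu_E_1, 40.9 in Mu_E_2 and 2.51 in Mu_E_3. evm.TU.CM024145.1.603, from 17779414 to 17788963 on the plus strand, was the best measured of the leading genes. It had 369.8, 287.95 and 7.45 FPKM in Mu_E_1, Mu_E_2 and Mu_E_3, with 2639, 1956 and 146 fragments behind these values, and a range of 5.49. Before it on the same strand, from 17735885 to 17736349, evm.TU.CM024145.1.601 had 52.4, 36.7 and 1.35 FPKM. Mu_E_1 and Mu_E_2 were close to each other in both genes, with Mu_E_3 far below.

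The lowest values of the other leading genes of this pattern, and of evm.TU.CM024145.1.601 with 7 fragments in Mu_E_3, were poorly determined. evm.TU.CM024154.1.204 had 27.7, 78.6 and 1.32 FPKM, from 23, 62 and 3 fragments, and its model overlaps another listed gene, so reads of the overlap cannot be assigned to it with certainty. evm.TU.CM024162.1.2 had 90.8, 35.1 and 2.03 FPKM, from 114, 42 and 7 fragments. Its counting interval of 4.25 to 6.69 was about as wide as that of evm.TU.CM024145.1.601, which was 4.04 to 6.49.

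HTR4 (evm.TU.CM024104.1.157) was the only member to which the study gives a gene name. HTR4 is known in vertebrates as a serotonin receptor coupled to G proteins. After its structure predictions, the study did not count this crab gene among its accepted receptors. HTR4 had 18.1, 20.5 and 1.24 FPKM in Mu_E_1, Mu_E_2 and Mu_E_3, backed by 138, 149 and 26 fragments. It ranked 138th with a range of 3.96. It also belonged to Mu_E_3 low, with Mu_E_1 and Mu_E_2 alike. None of the other candidate receptor genes that the study names and that were examined here was a member. The nearest were gpr161 at rank 1194 and FMRFaR at rank 1635 of the 8593 eligible genes.

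The smaller patterns held genes of high and of low depth. Among Mu_E_1 low genes, evm.TU.CM024100.1.141 had 48.6, 1905 and 424 FPKM in Mu_E_1, Mu_E_2 and Mu_E_3. With 1372, 51205 and 32852 fragments it was among the best measured of the 200, and its range of 5.35 had a counting interval of 5.27 to 5.42. evm.TU.CM024098.1.375 had 16.6, 382 and 176.7 FPKM, evm.TU.CM024147.1.194 had 10.3, 225 and 95.5 FPKM, and evm.TU.CM024135.1.483 had 2.03, 43.7 and 15.0 FPKM. In all of these Mu_E_2 was the highest and Mu_E_1 the lowest.

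Among Mu_E_2 high genes, evm.TU.CM024097.1.315 had 11.7, 87.8 and 2.34 FPKM in Mu_E_1, Mu_E_2 and Mu_E_3. evm.TU.CM024135.1.454 had 41.96, 319.6 and 13.7 FPKM, from 207, 1501 and 186 fragments. evm.TU.CM024160.1.486 had 3.52, 29.8 and 1.28 FPKM. The order of the crabs was the same in each, with Mu_E_3 lowest.

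Only 5 genes were in Mu_E_2 low. evm.TU.CM024115.1.297, which spans 45977 bp, had 32.1, 5.72 and 137.4 FPKM in Mu_E_1, Mu_E_2 and Mu_E_3, backed by 1296, 220 and 15247 fragments. evm.TU.CM024096.1.347 had 94.9, 6.29 and 55.5 FPKM. The values of evm.TU.CM024106.1.70, which were 54.9, 1.22 and 8.88 FPKM, and of evm.TU.CM024098.1.200, which were 7.22, 1.38 and 23.4 FPKM, rested on 3 and 2 fragments in Mu_E_2. The ends of the range differed within this pattern, since Mu_E_1 was highest for some and Mu_E_3 for others.

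**Figure D2:**
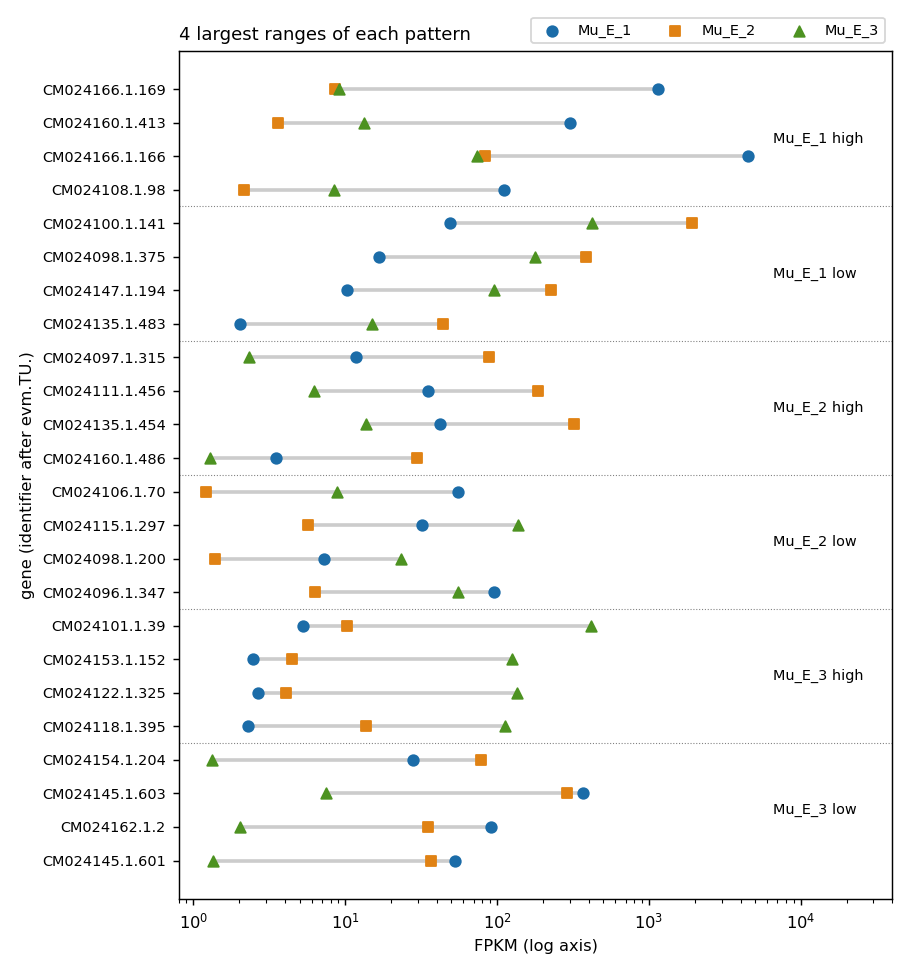
FPKM in each RNA-seq library, on a log axis, of the 4 members with the largest range in each of the 6 patterns. Symbols and colors are the libraries, and a gray line joins the lowest and the highest value of a gene. In the top rows Mu_E_1 lies far to the right, as for evm.TU.CM024166.1.169 at 1149 FPKM, and in the bottom rows Mu_E_3 lies far to the left.

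The precision of these ranges was set by the lowest library. The fewest fragments of a member over the 3 libraries had a median of 20.5, against 36 for all eligible genes. Fewer than 10 fragments in the lowest library were found for 69 members, or 34.5%, beside 17.4% of the eligible genes. At least 100 were found for 23 members, or 11.5%, beside 27.9%. An exact 95% interval of the ratio of the highest to the lowest library was computed from the fragments. It covers counting error only and takes no account of the choice of the largest ranges. Its lower bound was above 2 log2 units, or 4-fold, for 196 members, beside 9.09% of all eligible genes. The exceptions were evm.TU.CM024106.1.98, evm.TU.CM024151.1.232, evm.TU.CM024128.1.282 and evm.TU.CM024131.1.13, which had 1 to 3 fragments in their lowest library. The genes were chosen on these same values, so nothing is read from this share. The interval was wider than 2 log2 units for 72 members, or 36%, beside 22.1% of the eligible genes.

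**Figure D3:**
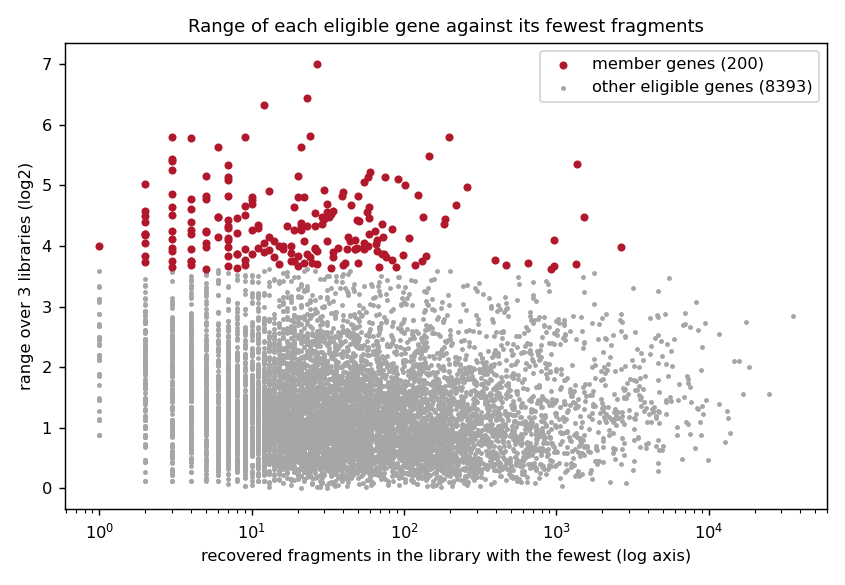
Range over the 3 libraries (log2) against the recovered fragments in the library with the fewest (log axis). Each point is 1 eligible gene, red for the 200 members and gray for the other 8393. Members lie at 3.62 or above at every depth from 1 to 2659 fragments.

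Member genes were shorter than the eligible genes. The median exon length was 888 bp, against 1359 bp, and the median span on the genome was 5.74 kb, against 8.91 kb. A model without an intron was found for 29 members, or 14.5%, beside 10.9%. Overlap with another listed gene was found for 14 members, or 7.0%, beside 6.52%. A short gene reaches 1 FPKM with few fragments, and the part of this in the difference in length was not tested. Of the members, 105 were on the plus strand and 95 on the minus strand, and they lay on 64 of the 111 sequences that hold an eligible gene.

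The position of the members was not used to choose them, and many were neighbors. An adjacent annotated gene on the sequence was also a member for 64 of the 200 genes, or 32%. A member was the next gene for 2.5% of all eligible genes and for 1.80% of the eligible genes outside the list. These 64 genes formed 29 runs, 23 of 2 genes and 6 of 3 genes. Within 100 kb of another member lay 85 of the 200 genes, a count not made for the eligible genes. Counting each run as 1 locus, the 200 genes were 165 loci. When the 200 genes were chosen without Mu_E_3, 50 had a member as the next gene.

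Neighboring members varied together. Of the 35 pairs of adjacent members, 30 had the same pattern, or 85.7%, against 37.3% of the 5110 adjacent pairs of eligible genes. Members were chosen for large ranges and most fell into 3 patterns, so part of this share is fixed by the choice. The gap between adjacent members had a median of 715 bp, against 2464 bp for the eligible pairs. It was 1 kb or less with both genes on the same strand for 17 of the 35 pairs, against 1340 of the 5110 eligible pairs. Gene prediction can split 1 transcription unit into several models, and duplicated genes often lie side by side. Whether either holds for these pairs was not tested. When same-strand neighbors within 1 kb were joined, 34 loci still had another member beside them. Of the 16 pairs with a gap over 1 kb, 14 had the same pattern, or 87.5%, against 31.3% of the 3311 eligible pairs with such a gap.

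A stretch with 4 members within 100 kb, chosen after its values were seen, ran from 10969108 to 11028391 on the minus strand and held 6 genes, evm.TU.CM024100.1.221 to evm.TU.CM024100.1.226. The 4 members among them were high in Mu_E_1, lower in Mu_E_2 and lowest in Mu_E_3. evm.TU.CM024100.1.221 had 53.1, 7.01 and 1.68 FPKM in these libraries. evm.TU.CM024100.1.223 had 49.4, 5.91 and 1.30 FPKM, and evm.TU.CM024100.1.224 had 70.5, 9.26 and 2.47 FPKM. evm.TU.CM024100.1.226 had 40.7, 4.60 and 1.03 FPKM. The genes between them, evm.TU.CM024100.1.222 and evm.TU.CM024100.1.225, fell outside the rule only because Mu_E_3 was under 1 FPKM. Their values of 45.4, 3.24 and 0.561 FPKM and of 48.6, 4.27 and 0.884 FPKM followed the same order.

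A stretch of 74.8 kb around the gene with the largest range held 4 members on both strands. Besides the genes at 1149 and 4508 FPKM in Mu_E_1 given above, evm.TU.CM024166.1.170 had 2189, 59.8 and 101.8 FPKM in Mu_E_1, Mu_E_2 and Mu_E_3. evm.TU.CM024166.1.171 had 55.0, 5.67 and 1.18 FPKM, from 51, 5 and 3 fragments. All 4 were high in Mu_E_1 alone. Their levels in Mu_E_1 were far apart, and the widest gap between adjacent members was 53596 bp.

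**Figure D4:**
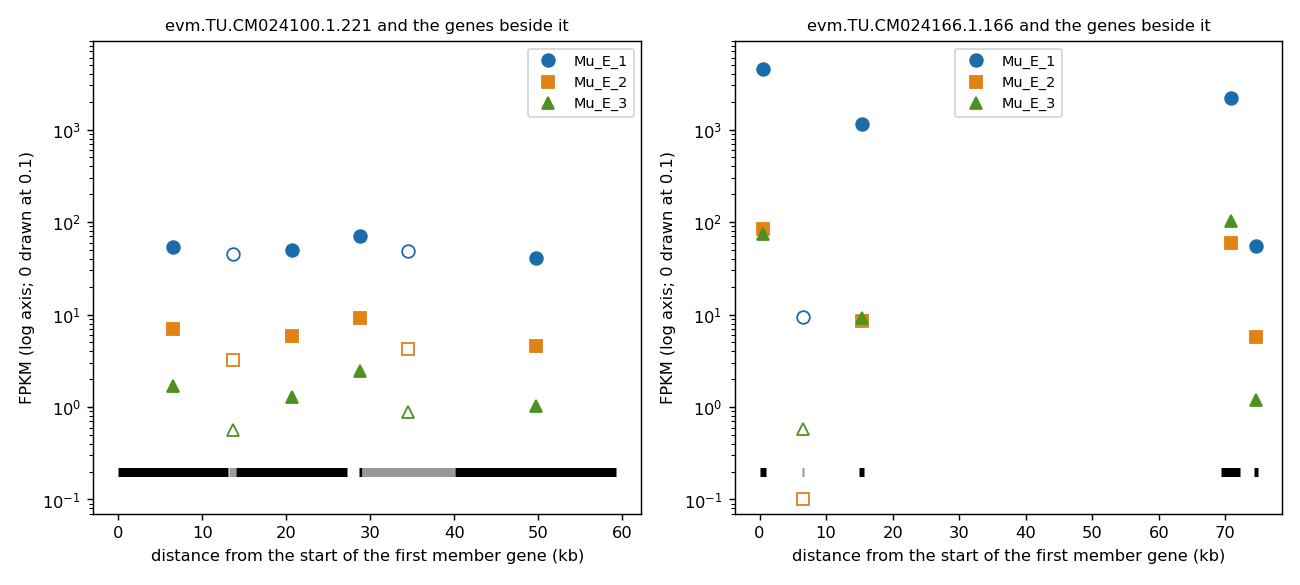
FPKM (log axis, with a value of 0 drawn at 0.1) of the genes in the 2 stretches that hold 4 members each, against the distance in kb from the start of the first member. Symbols and colors are the RNA-seq libraries, filled for members and open for other genes, and the bars below show the genes, black for members. Mu_E_1 is the highest library at every gene drawn, and on the left the libraries keep 1 order along 59.3 kb.

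In the other runs of 3 members the order of the crabs was mostly shared. On the plus strand from 15686937 to 15737928, evm.TU.CM024111.1.456 had 35.03, 184.9 and 6.23 FPKM in Mu_E_1, Mu_E_2 and Mu_E_3. evm.TU.CM024111.1.457 had 143, 437 and 23.8 FPKM, and evm.TU.CM024111.1.458 had 97.5, 289 and 21.0 FPKM. Mu_E_2 was highest and Mu_E_3 lowest in all 3, with gaps of 23 and 125 bp between the models, although only the first was in Mu_E_2 high by the larger gap and the others were in Mu_E_3 low.

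In the run from 21625063 to 21658563 on the plus strand, Mu_E_3 alone was low. evm.TU.CM024146.1.629 had 61.3, 41.1 and 3.63 FPKM in Mu_E_1, Mu_E_2 and Mu_E_3. evm.TU.CM024146.1.630 had 61.6, 59.4 and 3.96 FPKM, and evm.TU.CM024146.1.631 had 71.5, 60.4 and 4.73 FPKM. Mu_E_1 and Mu_E_2 were nearest to each other in the second of them.

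Mu_E_1 was the highest library in the remaining 3 runs. evm.TU.CM024153.1.209 had 1057, 162 and 77.5 FPKM in Mu_E_1, Mu_E_2 and Mu_E_3, while evm.TU.CM024153.1.210 had 33.2, 3.25 and 1.27 FPKM and evm.TU.CM024153.1.211 had 64.7, 13.8 and 3.31 FPKM. The highest value in the runs evm.TU.CM024126.1.254 to evm.TU.CM024126.1.256 and evm.TU.CM024152.1.88 to evm.TU.CM024152.1.90 was 50.5 FPKM and the lowest 1.18 FPKM. Mu_E_1 was highest in each of these genes, and the lowest library held 2 to 21 fragments.

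ATAC-seq, in which a transposase cuts accessible chromatin, was not used to choose the genes. A promoter peak was counted where a called peak touched the 2 kb on either side of the transcription start. The libraries held 52473, 44610 and 49831 called peaks in Mu_E_1, Mu_E_2 and Mu_E_3. Of the members, 47.0%, 48.5% and 50.0% had a promoter peak in Mu_E_1, Mu_E_2 and Mu_E_3, a mean of 48.5% ± 1.5 (SD, n = 3 libraries). The eligible genes had 51.9%, 50.1% and 53.0%, a mean of 51.7% ± 1.46. The members were the lower in each library, by less than 5 percentage points. Promoter peaks recurred in at least 2 libraries for 95 members, or 47.5%, beside 51.3% of the eligible genes, and 84 members had none in any library, or 42% beside 40.9%. The share of recurrent promoter peaks depended on how the 200 genes were chosen. It was 33.5%, beside 50.3% of the genes then eligible, without Mu_E_3, 46%, beside 50.6%, without Mu_E_2, and 54.5%, beside 50.8%, without Mu_E_1. With a minimum of 2 FPKM it was 53% beside 53.4%, and with at least 10 fragments in every library it was 58% beside 54.9%. The members were thus below the eligible genes under some choices and above them under others.

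Peaks within the gene were counted for the reported list only, not under the other choices of the genes. Gene-body peaks recurred in at least 2 libraries for 93 members, or 46.5%, beside 52.4%. Peaks in the promoter or gene body recurred likewise for 106 members, or 53.0%, beside 61.0%. Members also have shorter spans, and the part of this in the difference was not tested. Within spliced genes, the promoter peak share was 49.1% of 171 members and 53.3% of 7654 eligible genes. Within genes without an intron it was 37.9% of 29 members and 34.5% of 939 eligible genes.

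The patterns differed in their peaks. Of the 42 members in Mu_E_1 high, 9 had a promoter peak in at least 2 libraries, or 21.4%, while 44.4% of the 1196 eligible genes of that pattern had one. With the gene body included, the number was again 9, or 21.4%, against 56.4%. The median distance of the start to the nearest summit was 9134 bp for these members and 3382 bp for the eligible genes of the pattern. The share was lower at every level of expression, with 2 of 7 members under 10 FPKM in the mean, 3 of 20 from 10 to 30 FPKM and 4 of 15 above, against 41.2%, 46.3% and 55.2% of the eligible genes of the pattern. Neighboring members share their surroundings, and the 42 genes are not independent. The difference was not tested.

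The genes in which Mu_E_3 stood apart were near or above the eligible genes of their pattern. Promoter peaks recurred for 36 of 65 members in Mu_E_3 high, or 55.4%, against 56.1% of the eligible genes of the pattern. In Mu_E_3 low they recurred for 39 of 66, or 59.1%, against 50.7%. Gene-body peaks recurred for 49.2% of the members in Mu_E_3 high, against 52.1%, and for 68.2% of those in Mu_E_3 low, against 57.5%. With promoter and gene body together the shares were 58.5% against 62.2% in Mu_E_3 high and 72.7% against 64.1% in Mu_E_3 low. These differences were not tested. The remaining patterns held 11 genes or fewer each, with 5 of 11 in Mu_E_1 low, 5 of 11 in Mu_E_2 high and 1 of 5 in Mu_E_2 low.

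**Figure D5:**
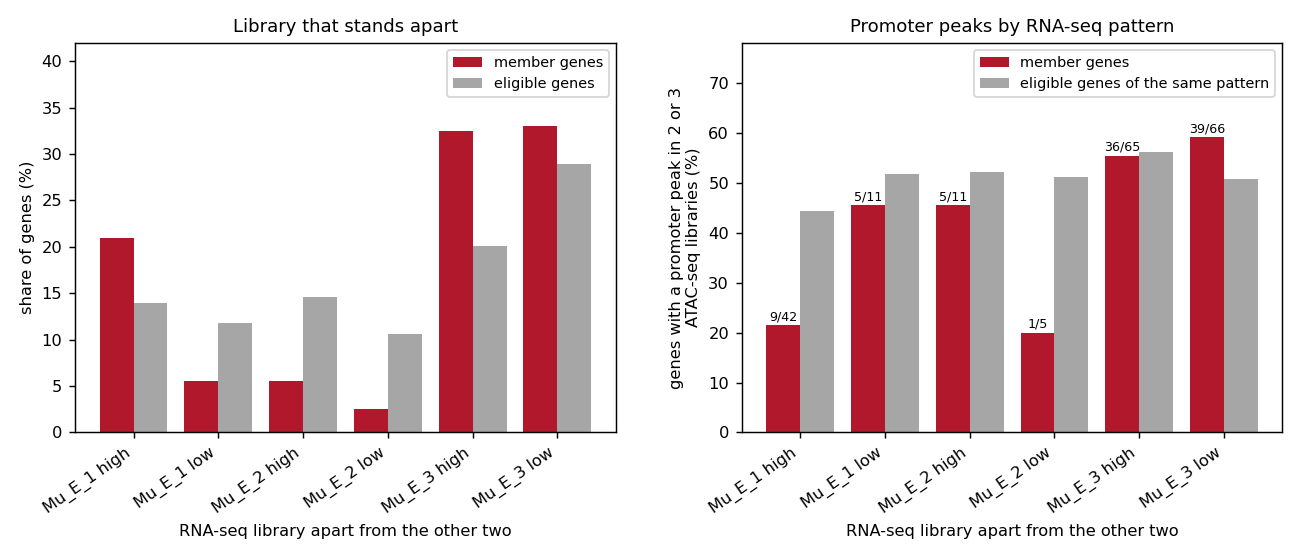
Left, the share of genes (%) in each pattern, for the 200 members in red and the 8593 eligible genes in gray. Right, the share with a promoter peak in at least 2 ATAC-seq libraries, with the counts of members above the red bars and the eligible genes of the same pattern in gray. The red bar of Mu_E_1 high stands at 21.4% beside 44.4%, and that of Mu_E_3 low at 59.1% beside 50.7%.

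The leading genes differed in how the strength of their promoter peaks compared with their RNA. The authors' fold enrichment, the height of a peak over its local background, is given for the strongest promoter peak, without subtraction of library medians. For evm.TU.CM024166.1.166 it was 8.17, 8.62 and 7.85 in the ATAC-seq libraries of Mu_E_1, Mu_E_2 and Mu_E_3, while its FPKM was far higher in Mu_E_1 than in the other crabs. For evm.TU.CM024101.1.39 it was 7.81, 6.01 and 7.14, and for evm.TU.CM024097.1.315 it was 15.5, 14.5 and 15.0. The promoter peak of evm.TU.CM024145.1.601 had 6.81, 6.75 and 7.46, with the highest value in the crab with the lowest RNA. In other genes peak strength was less even. It was 2.86, 4.14 and 3.06 for evm.TU.CM024166.1.169 and 3.36, 4.71 and 4.60 for evm.TU.CM024160.1.413, lowest in the crab with the highest RNA. For evm.TU.CM024100.1.141 it was 4.47, 6.35 and 5.38, the same order as its RNA. All of these peaks were called in every crab, including those in which the RNA was low. In these values a difference between whole ATAC-seq libraries cannot be told apart from a difference at a single gene.

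Other leading genes had peaks in some libraries only, or none. evm.TU.CM024153.1.152 had a promoter peak in Mu_E_2 and Mu_E_3, with fold enrichments of 3.85 and 3.53, and evm.TU.CM024122.1.325 had one in Mu_E_2 alone, at 4.62, although its RNA was highest in Mu_E_3. HTR4 had a promoter peak in Mu_E_3 alone, the library with its lowest FPKM. The nearest summits lay 2284, 2241 and 2261 bp from its start, just beyond the 2 kb limit in all 3 libraries. evm.TU.CM024145.1.603 had no promoter peak in any library, with the nearest summits 7623, 7622 and 7631 bp away. A peak below the threshold of the peak caller would not be listed.

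Over all members, the libraries were compared by number, since each crab gave an RNA-seq and an ATAC-seq library. Of 21 members with a promoter peak in 1 library only, that library had the number of the crab with the highest FPKM for 2 genes, or 9.52%, and of the crab with the lowest for 6, or 28.6%. These shares were 31.0% and 38.3% among 671 eligible genes. Of 80 members with a promoter peak in all 3 libraries, the strongest peak, after subtraction of library medians, was in the crab with the highest FPKM for 34, or 42.5%, and in the crab with the lowest for 20, or 25%. These shares were 34.8% and 30.0% among 3842 eligible genes. The median range of the log2 fold enrichment was 0.35 for these members and 0.32 for the eligible genes. Genes whose peak was not called in a crab are left out of these medians. The medians therefore do not describe peak strength in all members or all eligible genes.

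In the Mu_E_1 high pattern, 8 of 42 members had a promoter peak in the Mu_E_1 library, against 13 in Mu_E_2 and 12 in Mu_E_3. The eligible genes of the pattern had 45.5%, 43.5% and 47.0% in the same order. In the Mu_E_3 high pattern the counts were 33 of 65 in Mu_E_1, 40 in Mu_E_2 and 37 in Mu_E_3, beside 55.1%, 56.8% and 56.8% of the eligible genes. In the Mu_E_3 low pattern they were 40 of 66 in Mu_E_1, 33 in Mu_E_2 and 40 in Mu_E_3, beside 52.1%, 48.4% and 53.4%, with Mu_E_2 the lowest in both sets. The library apart in RNA did not have the most or the fewest promoter peaks in the Mu_E_3 high pattern. It had the fewest in the Mu_E_1 high pattern and shared the highest count in the Mu_E_3 low pattern. The ATAC-seq libraries differed in called peaks as a whole, with the fewest in Mu_E_2. The part of this in these counts was not tested.

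The members were set beside the lists of genes that the study called different between molting periods in both RNA and accessibility. The lists of molt against pre-molt or post-molt were chosen partly on these 3 crabs, so they are not independent of the values here. The lists among the other periods rest on crabs not analysed here. Of the members, 34 were in at least 1 list, or 17.0%, beside 8.89% of the eligible genes. The list of genes up-regulated at the molt relative to pre-molt held 18 members, or 9.0% beside 3.69%, which are 5.68% of the 317 eligible genes of the list. The list of genes down-regulated from post-molt to inter-molt held 20 members, or 10% beside 4.54%, which are 5.13% of its 390 eligible genes. Of the members, 6 were in both lists.

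Of the 18 members in the list up-regulated at the molt, 14 were in Mu_E_3 low, including HTR4. Of the 20 in the list down-regulated from post-molt to inter-molt, 12 were in Mu_E_3 low and 6 in Mu_E_1 high. Mu_E_3 low holds 33% of all members and 29% of all eligible genes. The patterns of the other eligible genes of these lists were not counted, so nothing particular to the members is read from these counts. The lists of genes down-regulated at the molt and of genes changed from molt to post-molt in either direction held 1 member each, beside 1.42%, 0.279% and 0.396% of the eligible genes. Of the remaining lists, that of genes up-regulated from post-molt to inter-molt held 1 member beside 0.233%, and those of inter-molt to pre-molt held 1 member beside 0.0815% and 0 members beside 0.0349%. evm.TU.CM024139.1.180, a list gene named after its values were seen, had 1711, 1825 and 76.6 FPKM in Mu_E_1, Mu_E_2 and Mu_E_3, and was among the most abundant of the 200. In Mu_E_3 high, the pattern with 65 members, 2 were in a list, a count not made for the eligible genes of the pattern. The values of the other periods were not analysed here.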

How the data were processed

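Muscle of 3 molt-period crabs gave 3 RNA-seq and 3 ATAC-seq libraries. For RNA-seq, reads were aligned with HISAT2 2.0.5 and uniquely mapped fragments were counted with featureCounts 1.5.0-p3, and the authors deposited FPKM values in 1 table of genes. The annotation version and the strand setting are not given in the sources used here. For ATAC-seq, reads were aligned with BWA and peaks were called in each library with MACS2. The deposited peak lists give a score, which was not used, the ratio of peak height over the surrounding background, called fold enrichment, and p-values and q-values as −log10. A shift of reads for the transposase is not given in the sources used here. FPKM times length came in whole steps for 100% of the values above 0, within a tolerance of 0.05 of a fragment, and these steps gave fragments for depth and counting intervals.

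Members were selected in Python 3.11.15 using pandas 2.3.3 on numpy 2.4.6, intervals came from scipy 1.17.1, and figures were drawn by matplotlib 3.10.9. Peaks touched a region with at least 1 bp. The coordinates are those of the NCBI genome of this species to which the study aligned. The members and lists were chosen with earlier results of these data known. Named genes were the 4 largest ranges of each pattern, the runs of 3 neighbors, genes the study names and the edge of the list, and other names are marked. With 1 condition and 3 crabs, no test between groups was made. The lists of cell types by gene name were not used, since the files pair no names with the identifiers. Selection, fragments, peaks and runs were tested on simulated data. Alternatives covered centring, filters, spread measure, promoter width, peak threshold and leaving out each library.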

Additional observations from a re-analysis of the deposited data

How the results depend on the processing

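The membership of the list depended on depth and on single libraries. With a minimum of 2 FPKM 133 of the 200 genes were among the 200 largest ranges, and with a minimum of 10 fragments in every library 131 were. Leaving out each RNA-seq library in turn kept between 64 and 140 of them, with 64 without Mu_E_3 and 118 without Mu_E_1. Under the other alternatives between 142 and 199 genes were kept, with 189 without centring and 175 with centring by trimmed mean of M-values, under which less was subtracted from Mu_E_3, by an offset of -0.20 log2 units relative to Mu_E_1, so that its values lay higher. For the same 200 genes, Mu_E_3 stood apart for 130 and 131 under these other scalings. Promoter peaks recurred for 79 to 107 of them as the window and peak threshold varied. The eligible genes had 44.4% and 56.9% with 1 kb and 3 kb on each side. With 1 ATAC-seq library left out, a promoter peak was required in both of the others. This held for 87, 88 and 80 members without Mu_E_1, Mu_E_2 and Mu_E_3, beside 46.7%, 48.4% and 45.6% of the eligible genes. The genes with a member as the next gene numbered 50 to 68 under other choices of the 200 genes. By the wider measure of another member within 100 kb, the number was 85. Joining same-strand neighbors within 1 kb, chosen after seeing the data, left 34 loci. No paired analysis was possible because no result comes from a test between groups, and the RNA-seq and ATAC-seq libraries of a crab were set side by side as a description only.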

Other observations

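The rule leaves out genes that were nearly silent in a crab. At least 10 FPKM in the highest library and under 1 FPKM in the lowest was found for 146 annotated genes, of which 34 were listed at 0 in a library. The highest library was Mu_E_3 for 69 of them, Mu_E_1 for 49 and Mu_E_2 for 28. Their folds rest on few fragments in the lowest library and are not given. Within 100 kb of each other, the members formed 37 groups of 85 genes, and 30 of the groups held a single pattern. Such groups were not formed for the eligible genes, and the pattern rests on the values that chose the members.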
